A study of Homo sapiens with 6 samples.

Results

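The ETS factors that carry signals from the kinase ERK to the genome were examined as a set of 8 genes in LX-2 cells, an established human hepatic stellate cell line. The 8 genes, grouped by their place in the pathway, were taken by symbol from a table of 60748 genes. They are ETV1, ETV4 and ETV5 (the PEA3 factors), ELK1, ELK3 and ELK4 (the ternary complex factors), and ETS1 and ETS2. RNA was sequenced from 3 libraries of LX-2Vector cells and 3 libraries of LX-2FAP cells, all cultured for 24 hours in DMEM with 10% serum. Both groups were stably infected with lentivirus and selected with puromycin. LX-2FAP cells received a plasmid for fibroblast activation protein α (FAPα, a membrane serine protease of activated stromal cells), and LX-2Vector cells received the matching GV367 vector, which carries a ubiquitin promoter and EGFP. The number of independently derived lines behind each group is not given, so the p-values measure the spread between these libraries, which may be technical. The study compared the groups to find what FAPα changes in stellate cells. In other experiments, with medium from tumor cells and in xenografts, it placed signaling through FGFR1, ERK and EGR1 upstream of FAPα. Here FAPα came from the lentivirus, so these libraries do not test that step.

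ETS factors share a DNA-binding domain that recognizes a core of GGAA. Once activated, ERK phosphorylates the 8 members directly. The ternary complex factors sit with SRF (serum response factor) on the promoters of immediate early genes such as EGR1, and phosphorylation turns them into strong activators. ETS1 and ETS2 recruit coactivators more firmly once phosphorylated and often act beside AP-1 on matrix protease genes. The PEA3 factors differ in that their own transcription follows ERK, because ERK relieves repression by capicua (CIC), and their proteins are destroyed through the ubiquitin ligase adaptor COP1. Activation of all 8 proteins by phosphorylation is not visible in RNA, and the values here are transcript levels alone.

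FAP, the transgene, was read first. It had 49, 42 and 55 counts in the LX-2Vector libraries and 14864, 15160 and 14805 counts in the LX-2FAP libraries, so every library matched its label. Total counts ran from 17355700 to 26352060 per library. Of the 10 stellate cell markers, VIM averaged 301 FPKM (read fragments scaled to gene length and sequencing depth) in LX-2Vector and 323 FPKM in LX-2FAP, and COL1A1 averaged 34.3 and 25.5 FPKM. Defining markers near 0 were DES (desmin), with 0.0114 and 0.0129 FPKM, and COL1A2, with 0.109 and 0.0964 FPKM. ACTA2, which marks activated stellate cells, averaged 1.29 FPKM in LX-2Vector and 0.975 FPKM in LX-2FAP. The summed stellate list, most of which is VIM, lay between 483 and 517 FPKM in LX-2Vector and between 496 and 515 FPKM in LX-2FAP. Of 9 stellate markers tested by edgeR across all genes, VIM was called higher in LX-2FAP, and COL1A1, COL3A1 (6.22 and 3.74 FPKM) and PDGFRB (3.51 and 2.65 FPKM) were called lower, with a median log2 fold change of -0.36 over the 9. Their part in the results on the ETS factors was not tested. Of 13 hepatocyte, endothelial, leukocyte and epithelial markers, 12 stayed under 1 FPKM in every library, LYZ being the exception, and TTR was listed at 0. The summed level of these 13 markers lay between 3.59 and 4.99 FPKM in LX-2Vector and between 4.43 and 6.19 FPKM in LX-2FAP. In bulk RNA, fewer cells with a transcript and less transcript per cell cannot be told apart.

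ETV1 and ELK3, the members that passed the test, are shown by the 250 bases before a start site, because capicua and ETS factors are read from such sequence. The sequences are RefSeq's (GRCh38.p14), which had windows for 5 of the 8 members. ETV1 has 6 windows and ELK3 has 2, and the outermost of each is printed 5′ to 3′ on the strand of the gene. Capitals mark GGAA on either strand, which reads TTCC on the other, and the capicua octamer TGAATGGA.
ETV1, chr7:13991426-13991675, minus strand: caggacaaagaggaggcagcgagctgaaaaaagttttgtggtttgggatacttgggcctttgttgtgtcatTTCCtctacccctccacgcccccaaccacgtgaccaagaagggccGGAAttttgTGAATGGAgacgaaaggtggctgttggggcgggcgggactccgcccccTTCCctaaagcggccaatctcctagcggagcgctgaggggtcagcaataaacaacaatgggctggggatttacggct
ELK3, chr12:96194125-96194374, plus strand: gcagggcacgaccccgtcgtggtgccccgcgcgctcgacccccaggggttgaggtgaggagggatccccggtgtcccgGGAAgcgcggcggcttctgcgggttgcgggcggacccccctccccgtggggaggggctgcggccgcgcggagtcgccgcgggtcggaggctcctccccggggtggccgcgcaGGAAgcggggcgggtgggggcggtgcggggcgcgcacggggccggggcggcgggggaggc
The ETV1 window held 3 GGAA cores, of which 1 sits in the longer ETS site CCGGAA at position -136 from the start site, and 1 capicua octamer at position -125. Of the 6 ETV1 windows, this is the 1 that holds a capicua octamer. Over 35097 windows of the same length in all genes, searched on both strands, 92.7% held GGAA, 14.5% held CCGGAA and 0.832% held TGAATGGA, and the other capicua octamer, TGAATGAA, was in 1.40%. CCGGAA overlaps GGAA by definition. The ELK3 window was 82.0% G and C and held 2 GGAA cores and neither of the longer motifs. The AP-1 site TGANTCA, present in 6.57% of windows, and the SRF CArG box, present in 1.16%, were in none of the 12 windows of the members. These are letter matches, and no binding was measured.

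All 8 genes were transcribed in both groups and all 8 passed the filter on low counts. The levels, compared per length as FPKM, spanned a wide range. In LX-2Vector, ELK3 was highest at 45.3 ± 2.27 FPKM (SD, n = 3), followed by ETS1 at 39.5 ± 2.69 FPKM and ELK1 at 25.4 ± 0.541 FPKM. ETV5 at 13.7 ± 0.164 FPKM, ETS2 at 11.7 ± 0.118 FPKM and ELK4 at 10.3 ± 0.390 FPKM formed the middle of the order. ETV4 at 5.96 ± 0.287 FPKM and ETV1 at 3.74 ± 0.297 FPKM were lowest. The order was the same in LX-2FAP, and no 2 neighbors in it overlapped between libraries in either group. This order and the shares that follow rest on the gene lengths behind FPKM, such as 9615 bases for ETV1 and 3515 for ETV4. The spread between libraries does not test these lengths. By summed LX-2Vector counts, the order from the highest was ETS1, ELK3, ELK4, ELK1, ETV5, ETS2, ETV1 and ETV4. Ternary complex factors supplied 52.1% of the summed FPKM of the 8 genes in LX-2Vector and 53.5% in LX-2FAP, ETS1 and ETS2 supplied 32.9% and 30.8%, and the PEA3 factors supplied 15.03% and 15.7%.

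**Figure D1:**
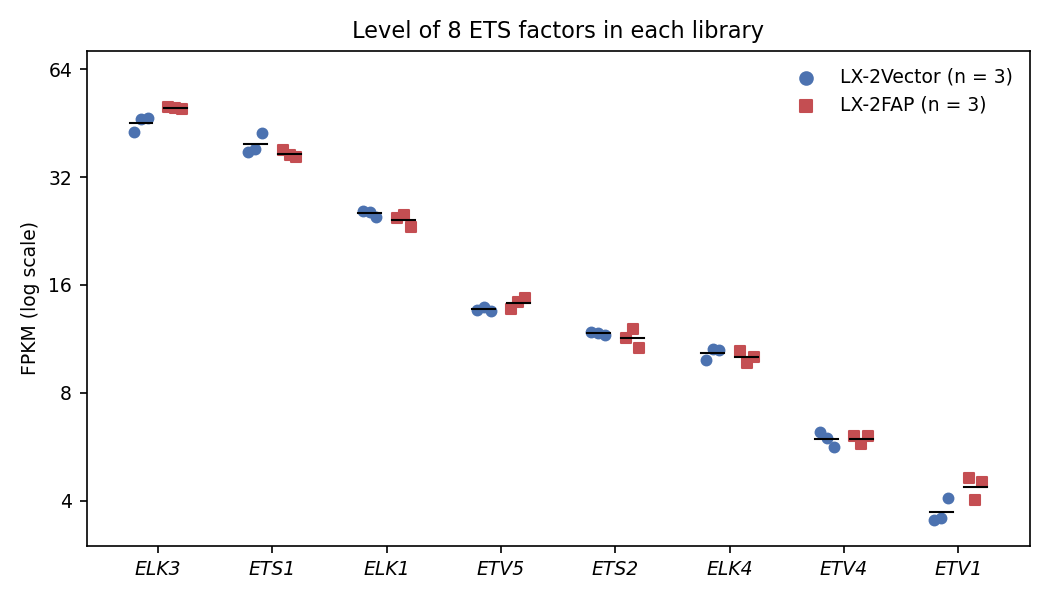
FPKM (log axis) of the 8 ETS factors in each of the 3 LX-2Vector libraries (circles) and 3 LX-2FAP libraries (squares), with group means as lines. The genes keep the same order in both groups, from ELK3 (45.3 FPKM in LX-2Vector) to ETV1 (3.74 FPKM). This span exceeds the difference between groups for every gene.

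Of the 8 members, 2 rose in LX-2FAP, none fell, and 6 did not pass the test (edgeR, adjusted p under 0.05 over 18275 tested genes). Both that rose moved little: ETV1 by 20.0% and ELK3 by 12.2%. Over all tested genes, 2.57% were called higher and 2.73% were called lower, and the counts of every list below stand beside these shares. The log2 fold change was positive for 4 members and negative for 4, with a median of 0.01 against -0.01 over all tested genes. In CPM (counts scaled to library depth after TMM normalization), 3 members did not overlap between groups, all higher in LX-2FAP. Of all tested genes, 26.4% did not overlap, counted in either direction. The TMM factors ran from 1.005 to 1.014 in LX-2Vector and from 0.988 to 0.993 in LX-2FAP. CPM therefore sets LX-2FAP slightly higher against LX-2Vector than FPKM does, and on FPKM the groups overlapped for ETV1 and ETV5.

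ETV1 is a PEA3 factor known for its part in nerve development and as an oncogene in prostate cancer and gastrointestinal stromal tumors (gene on chromosome 7, 13891228 to 13991425, minus strand, GRCh38). Its level was 3.54, 3.59 and 4.08 FPKM in the LX-2Vector libraries and 4.63, 4.02 and 4.50 FPKM in the LX-2FAP libraries. On this scale the lowest LX-2FAP library lay just under the highest LX-2Vector library. After TMM scaling the values were 34.0, 34.1 and 38.8 CPM against 45.0, 39.2 and 43.9 CPM, and the groups did not overlap, though by a narrow margin. The log2 fold change was 0.26 (SE 0.068, 95% interval 0.12 to 0.41, edgeR adjusted p = 0.0367). ETV1 also passed the cutoff named by the study, a fold change over 1.2 with p under 0.05, taken here as unadjusted, which 7.89% of tested genes passed. This was at the edge, since the fold was 1.2005 and exceeded 1.2 in 6 of 14 alternative fits (1.18 with library size alone, 1.17 without LX-2Vector 1).

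ETV5 and ETV4, its relatives, did not pass. ETV5, which acts in FGF signaling in development and in spermatogonial stem cells, had 13.6, 13.9 and 13.6 FPKM in LX-2Vector and 13.7, 14.3 and 14.8 FPKM in LX-2FAP. The LX-2FAP values reached higher, but 1 of them lay within the LX-2Vector range. After TMM scaling the groups did not overlap, with 78.3, 79.2 and 77.6 CPM against 79.9, 84.0 and 86.3 CPM. The log2 fold change of ETV5 was 0.09 (95% interval -0.01 to 0.19, edgeR adjusted p = 0.275). ETV4, the founding PEA3 factor, had 6.23, 5.98 and 5.66 FPKM in LX-2Vector and 6.08, 5.76 and 6.07 FPKM in LX-2FAP, with fully interleaved groups. Its log2 fold change was 0.03 (95% interval -0.12 to 0.18, edgeR adjusted p = 0.847). The 3 intervals overlap, so the call on ETV1 alone does not show that it differs from its relatives.

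ELK3, also called Net, represses transcription until ERK phosphorylates it and is best known for its part in blood vessel formation and wound healing (chromosome 12, 96194382 to 96269835, plus strand, GRCh38). It had 42.7, 46.3 and 46.9 FPKM in LX-2Vector and 50.2, 49.7 and 49.4 FPKM in LX-2FAP. All LX-2FAP libraries were above all LX-2Vector libraries, and the LX-2FAP values lay close together while the first LX-2Vector library was the lowest of the 6. The log2 fold change was 0.17 (SE 0.042, 95% interval 0.08 to 0.26, edgeR adjusted p = 0.0339). ELK3 stayed below the 1.2-fold cutoff. Its exons overlap an antisense gene over 4.50% of their length, and whether counting used strand is not given. Of its 75-base words, 2.84% also occur in transcripts of other genes.

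ELK1, the prototype ternary complex factor, had 25.8, 25.6 and 24.8 FPKM in LX-2Vector and 24.6, 25.1 and 23.2 FPKM in LX-2FAP. The groups overlapped, with a log2 fold change of -0.03 (95% interval -0.13 to 0.07, edgeR adjusted p = 0.734). ELK4, also called SAP-1, had 9.90, 10.6 and 10.5 FPKM in LX-2Vector and 10.5, 9.69 and 10.1 FPKM in LX-2FAP. Its log2 fold change was -0.01 (95% interval -0.10 to 0.09, edgeR adjusted p = 0.952), and its groups were interleaved.

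ETS1, a factor of lymphocytes, endothelium and invasive stroma, had 37.5, 38.4 and 42.5 FPKM in LX-2Vector and 38.0, 37.0 and 36.4 FPKM in LX-2FAP. The third LX-2Vector library stood above the other five, which lay close together. Its log2 fold change was -0.06 (95% interval -0.16 to 0.04, edgeR adjusted p = 0.509). ETS2, its close relative on chromosome 21, had 11.8, 11.8 and 11.6 FPKM in LX-2Vector and 11.4, 12.1 and 10.7 FPKM in LX-2FAP. Here the LX-2FAP libraries lay on both sides of the LX-2Vector libraries, with a log2 fold change of -0.02 (95% interval -0.13 to 0.10, edgeR adjusted p = 0.891). For the 6 members that were not called, the intervals leave room for changes in log2 of at most 0.19 upward and 0.16 downward.

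**Figure D2:**
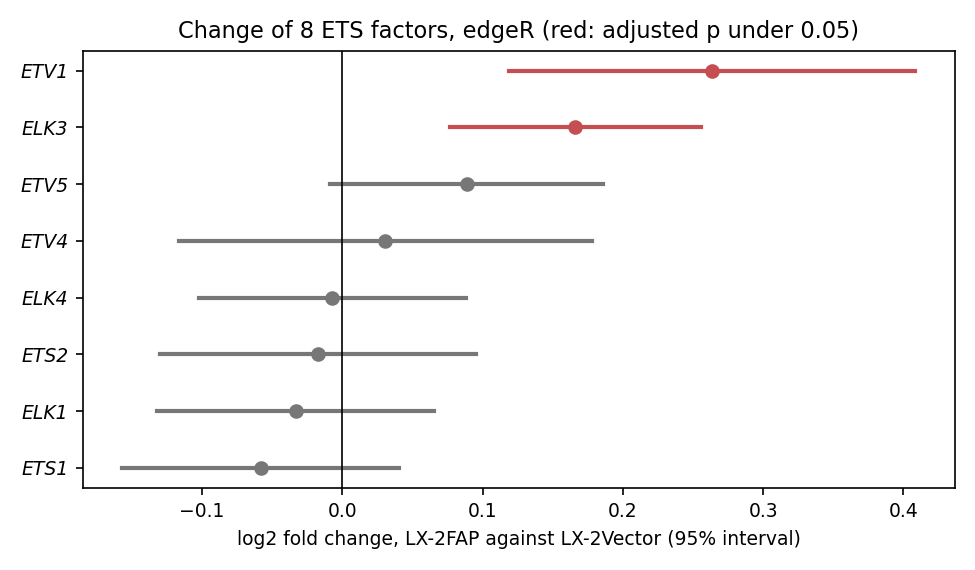
Log2 fold change of each member, LX-2FAP against LX-2Vector, from edgeR with its 95% interval (horizontal lines). The intervals of ETV1 (0.12 to 0.41) and ELK3 (0.08 to 0.26) lie above 0, and those of the other 6 members include 0.

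The calls on ETV1 and ELK3 were near the threshold. Both kept a positive log2 fold change in all 14 alternative fits, from 0.19 to 0.34 for ETV1 and from 0.13 to 0.20 for ELK3, and each was called in 7 of 14, with adjusted p from 0.0023 to 0.207 for ETV1 and from 0.0069 to 0.159 for ELK3. Neither was called without LX-2Vector 1, LX-2Vector 2 or LX-2FAP 3, ETV1 was lost without LX-2FAP 1 (adjusted p = 0.0643, edgeR), ELK3 was lost without LX-2FAP 2 (adjusted p = 0.117, edgeR), and both were kept without LX-2Vector 3.

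**Figure D3:**
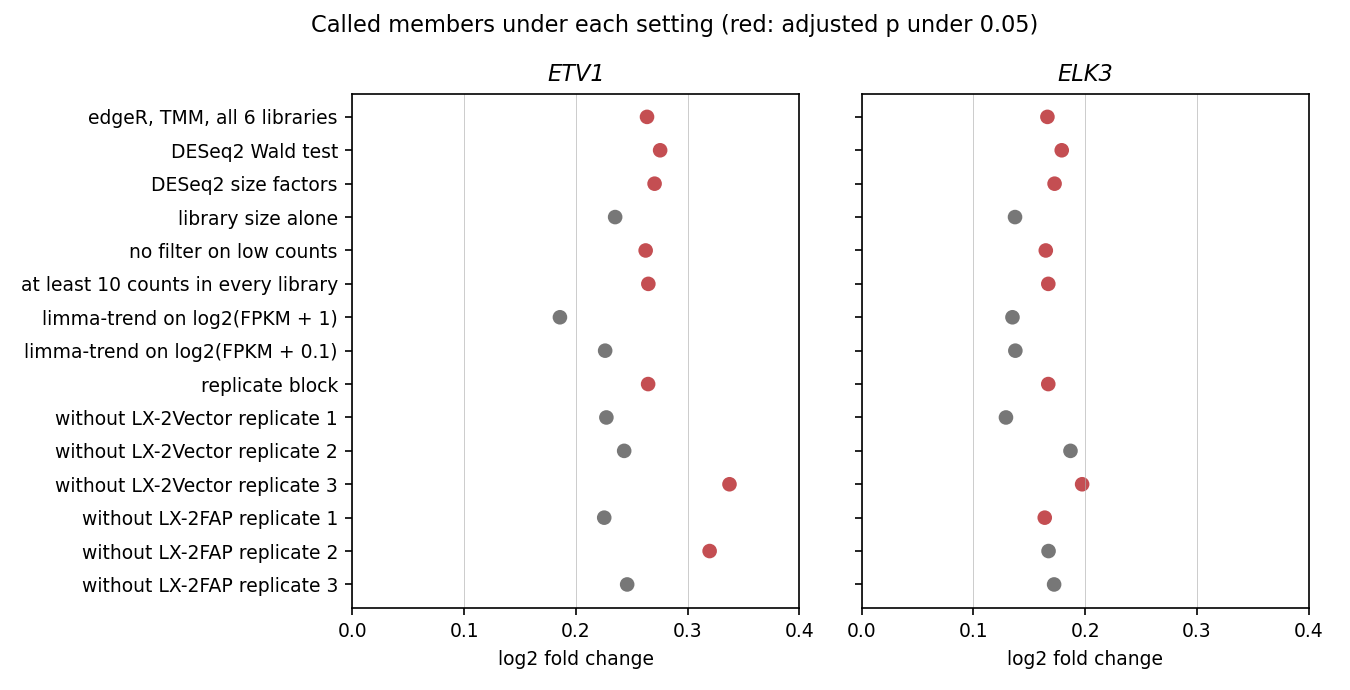
Log2 fold change of ETV1 and ELK3 (LX-2FAP against LX-2Vector) under edgeR with all 6 libraries and under 14 alternative fits, red where the adjusted p was under 0.05. All points lie to the right of 0, between 0.19 and 0.34 for ETV1 and between 0.13 and 0.20 for ELK3, and 7 of the 14 alternatives are red for each gene.

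Ratios between relatives within a library do not depend on how libraries are scaled, and 7 pairs within subfamilies were compared. These pairs were added after the values of the members were seen. With 3 libraries against 3 the smallest 2-sided p of an exact permutation test is 0.1, so no pair can pass 0.05. ELK3 over ELK1 was 1.78 ± 0.119 in LX-2Vector and 2.05 ± 0.0747 in LX-2FAP (SD, n = 3, exact permutation p = 0.1, adjusted over the 7 pairs 0.35). ELK3 over ELK4 was 4.38 ± 0.0744 and 4.94 ± 0.175 (n = 3, exact permutation p = 0.1, adjusted 0.35). In both, the lowest LX-2FAP library lay above the highest LX-2Vector library, and both hold ELK3, which was already called from the same libraries. As a share of the summed ternary complex factors, ELK3 was 55.9% in LX-2Vector and 59.1% in LX-2FAP. ETV1 over ETV4 was 0.630 ± 0.0804 and 0.734 ± 0.0326, and ETV1 over ETV5 was 0.273 ± 0.0236 and 0.308 ± 0.0289, each with overlapping groups (n = 3, exact permutation p = 0.2, adjusted 0.35). The ratios ETV4 over ETV5, ELK1 over ELK4 and ETS1 over ETS2 overlapped as well, with exact permutation p from 0.4 to 0.7. ELK3 over ETS1, the 2 most abundant members, was 1.15 ± 0.0537 in LX-2Vector and 1.34 ± 0.0185 in LX-2FAP (SD, n = 3). That pair was likewise chosen after its values were seen and is given without a test.

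**Figure D4:**
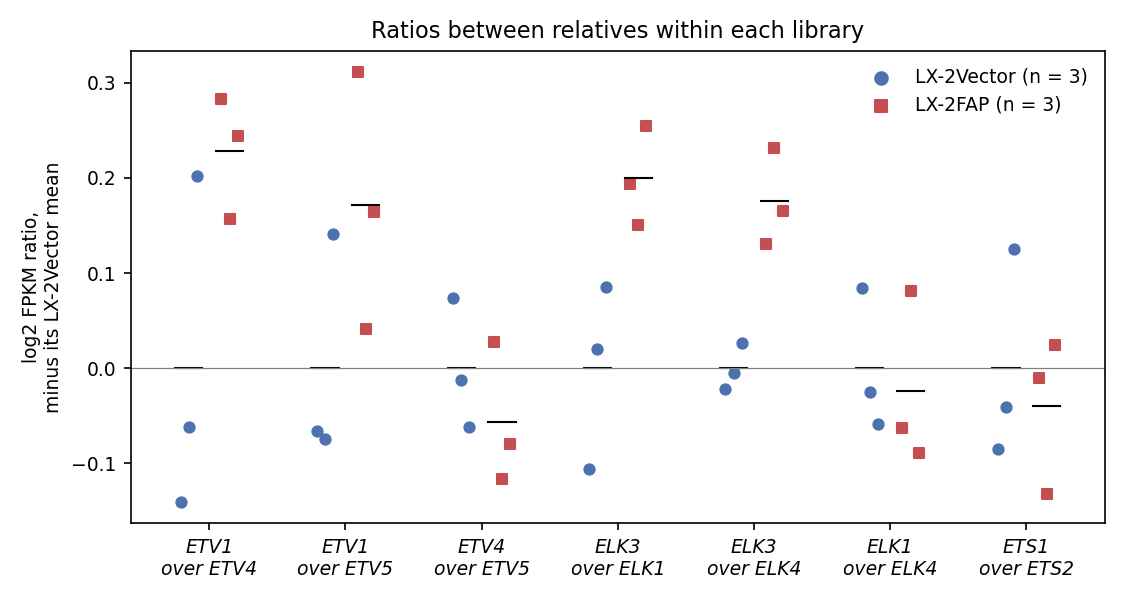
Log2 of the FPKM ratio between relatives in each library, minus its mean in LX-2Vector (circles LX-2Vector, squares LX-2FAP, 3 libraries each, lines for group means). The squares of ELK3 over ELK1 and of ELK3 over ELK4 lie above all circles, and in the other 5 pairs the groups overlap.

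The genes whose pattern over the 6 libraries lay nearest to the called members were sought among the 11555 tested genes averaging 100 counts or more, by the root mean square difference of centered log2 CPM. Nearest to ETV1 were ABI3BP, an extracellular matrix protein gene, at 0.0313, the unnamed gene ENSG00000255866 at 0.0364 and TMEM158 at 0.0415. Nearest to ELK3 were FAM126A at 0.0088, DLGAP5, a mitotic spindle gene, at 0.0147 and PUS3, a pseudouridine synthase gene, at 0.0169. With 6 libraries and this many genes, near matches are a description only.

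The 20 other ETS genes held the remaining part of the family. The 8 members made up 67.2% of the summed ETS FPKM in LX-2Vector and 67.9% in LX-2FAP, and the summed level itself was 232 ± 5.19 FPKM and 232 ± 3.55 FPKM (SD, n = 3). Of the 20, edgeR tested 13 and called none, with 0 at an unadjusted p under 0.05. With 2.57% of all tested genes called higher and 2.73% lower, no call among 13 does not set them apart from the whole table. DESeq2 gave an adjusted p for 8 of them and called none. Their median log2 fold change was 0.01. The 4 highest were ERF, a repressor that ERK exports from the nucleus, at 14.0 and 13.1 FPKM in LX-2Vector and LX-2FAP, ETV3 at 11.9 and 12.3 FPKM, ELF1 at 11.6 in both groups, and GABPA, which drives housekeeping and mitochondrial genes, at 10.5 and 10.97 FPKM. SPIC, a factor of red pulp macrophages, had 0 counts in all 6 libraries, which allows up to 3 counts in each, between 0.114 and 0.171 CPM (counting error only). ERG, an endothelial factor, had 5, 0 and 1 counts in LX-2Vector and 2, 0 and 2 counts in LX-2FAP.

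In the cascade from FGFR1 through RAS to ERK and the RSK kinases, all 25 genes were tested, 2 rose, 1 fell and 22 did not pass, with a median log2 fold change of 0.02. PTPN11, which encodes the phosphatase SHP2 that helps activate RAS, was at 79.6 FPKM in LX-2Vector and 88.3 FPKM in LX-2FAP (log2 fold change 0.18, edgeR adjusted p = 0.0233). RASA1, a GTPase-activating protein that switches RAS off, was at 30.7 and 33.4 FPKM (0.15, edgeR adjusted p = 0.0444), and 14.7% of its exon sequence lies opposite CCNH. It was not called in any of the 6 fits that left out 1 library (edgeR adjusted p from 0.069 to 0.22), nor with library size alone. RPS6KA1, an RSK kinase downstream of ERK, was at 7.39 and 6.26 FPKM (-0.21, edgeR adjusted p = 0.0362). It was not called by DESeq2 (adjusted p = 0.0609), and with 1 library left out it kept its call only without LX-2FAP 1. PTPN11 kept its call without LX-2Vector 2 or LX-2FAP 1 and lost it in the other 4 such fits. The kinase gene MAPK3 (16.4 and 14.2 FPKM) was not called, and neither was the receptor gene FGFR1 (9.81 and 9.28 FPKM).

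Of 17 genes that report or restrain ERK output, 5 rose, 1 fell and 11 did not pass, with a median log2 fold change of 0.07. CCND1, the G1 cyclin, rose from 157 to 199 FPKM (0.38, edgeR adjusted p = 0.0004). The feedback inhibitors DUSP6, a phosphatase of ERK (20.0 to 22.4 FPKM, 0.20), SPRY2 (13.1 to 14.8 FPKM, 0.21) and SPRED1 (13.3 to 15.8 FPKM, 0.29) rose, as did PHLDA1 (79.1 to 91.8 FPKM, 0.24), with edgeR adjusted p between 0.0077 and 0.0339. With each library left out in turn, CCND1 was called in 6 of 6 fits, PHLDA1 in 5, DUSP6 in 4, SPRED1 in 3 and SPRY2 in 2. SPRY4 was at 6.22 and 6.45 FPKM (0.08, edgeR adjusted p = 0.446). EGR1, the immediate early gene that ternary complex factors and SRF drive, moved the other way, from 9.80 to 7.13 FPKM (-0.44, edgeR adjusted p = 0.0067). Its values were 10.3, 9.29 and 9.79 FPKM in LX-2Vector and 6.68, 7.69 and 7.03 FPKM in LX-2FAP, without overlap, and its call was lost without LX-2FAP 3 (edgeR adjusted p = 0.068). The exons of DUSP6 overlap an antisense gene over 40.5% of their length. Opposite-strand genes likewise overlap 16.5% of the exon length of PHLDA1 and 10.3% of that of CCND1.

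Of 25 regulators and partners of the members, 24 were tested, 1 rose, 1 fell and 22 did not pass, with a median log2 fold change of -0.03. JUNB, a subunit of AP-1, fell from 10.3 to 7.55 FPKM (-0.42, edgeR adjusted p = 0.0082), a call lost without LX-2FAP 3 (edgeR adjusted p = 0.0748). Of its exon sequence, 14.2% lies opposite HOOK2. CIC, the repressor of the PEA3 genes, was at 8.39 and 7.47 FPKM (-0.14, 95% interval -0.29 to 0.0041, edgeR adjusted p = 0.241). Its log2 fold change was -0.054 without LX-2Vector 1 and -0.21 without LX-2Vector 2. SRF was at 11.6 and 10.9 FPKM (-0.06, edgeR adjusted p = 0.624). COP1, on which turnover of PEA3 proteins depends, was at 9.30 and 9.25 FPKM and was not called.

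Of 17 genes commonly given as targets of ETS factors and AP-1, 14 were tested, 2 rose, 1 fell and 11 did not pass, with a median log2 fold change of 0.05. MMP1, interstitial collagenase, rose from 230 to 333 FPKM (0.57, edgeR adjusted p = 0.0004), and MMP3, stromelysin, rose from 7.78 to 10.4 FPKM (0.43, edgeR adjusted p = 0.0498). MMP1 was called with each of the 6 libraries left out in turn, whereas MMP3 kept its call only without LX-2FAP 1 and lost it in the other 5 fits. MMP9, a gelatinase, fell from 9.19 to 4.92 FPKM (-0.86, edgeR adjusted p = 0.0044) and was called in all 6 such fits. The list thus held calls in both directions. Opposite-strand genes overlap 18.4% of the exon length of MMP9, 7.61% of that of MMP1 and 1.56% of that of MMP3.

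**Figure D5:**
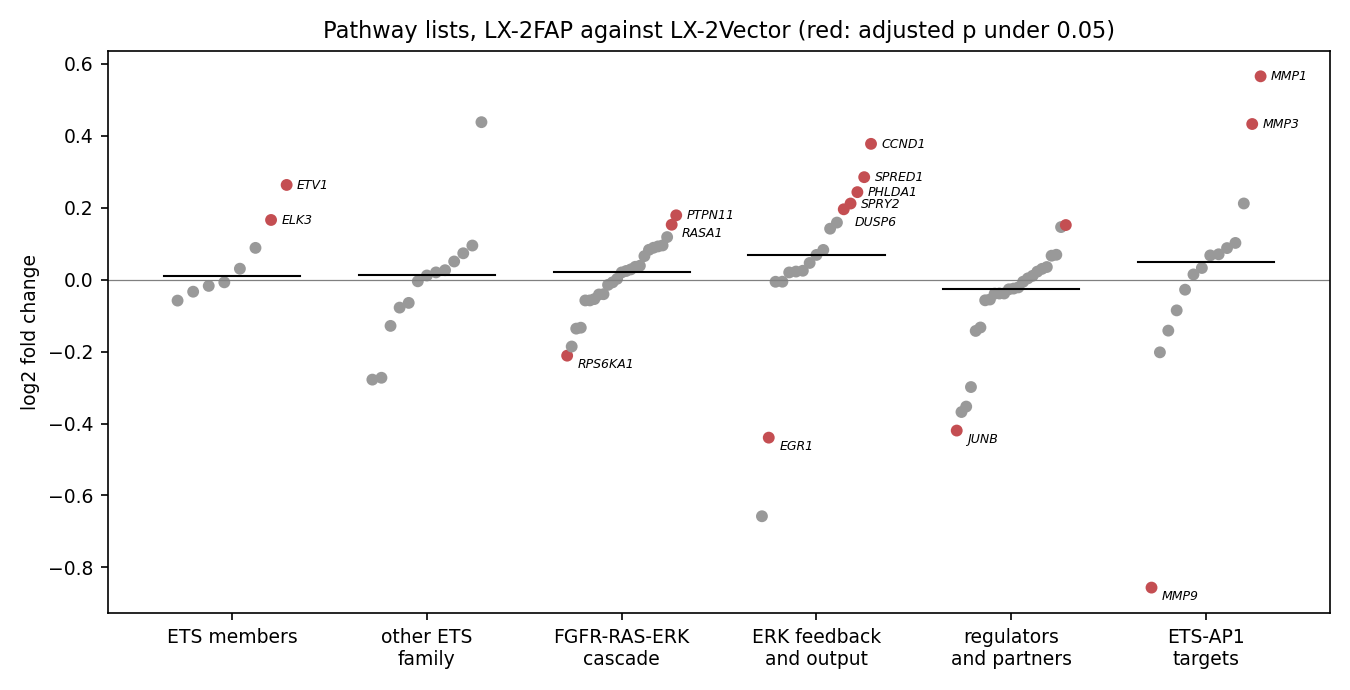
Log2 fold change, LX-2FAP against LX-2Vector, of the tested genes in 6 lists, sorted within each list, with list medians as lines and called genes in red, most of them with their names. Medians lie between -0.03 and 0.07, the 13 other ETS genes have no red point, and the highest point is MMP1 (0.57) and the lowest is MMP9 (-0.86).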

How the data were processed

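Poly(A) isolation and depletion of ribosomal RNA are both named in the sources, so which RNA classes were kept is unclear. Alignment by the authors used HISAT2 2.0.5, and featureCounts 1.5.0-p3 gave the deposited whole-number counts. The deposited FPKM values were derived by the authors from each count and the length of its gene. The submitters' processing notes name hg18, whereas the rows carry Ensembl identifiers; coordinates given here are from GENCODE annotation on GRCh38. Rows without an Ensembl identifier, 143 in number, held 0.112% of counts.

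The quasi-likelihood test of edgeR 4.0.16 (R 4.3.3) was run on the counts after TMM scaling and filterByExpr (minimum count 10, minimum total 15), with Benjamini-Hochberg adjustment over 18275 genes and a threshold of 0.05, by which 967 genes were called. The script was tested on simulated data. All p-values are 2-sided, and standard errors come from the test statistic. Named outside the members are called genes of each list (1 called regulator is not reported here), the 4 most abundant other ETS genes, those at 0, and DUSP6, SPRY4, EGR1, CIC and SRF; MAPK3, FGFR1, COP1 and ERG were added after their values were seen, as were the 7 ratios. Members and lists were chosen with earlier results of these data known. Alternatives were DESeq2 1.42.0, its size factors, library size alone, other filters, limma 3.58.1 on log2(FPKM + 1) and log2(FPKM + 0.1), a replicate block and leaving out each library.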

Additional observations from a re-analysis of the deposited data

How the results depend on the processing

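The number of members called, 2 in edgeR with all 6 libraries, was 0 with library size alone, 0 in both limma fits (2 at an unadjusted p under 0.05) and 1, ETV1, under the 1.2-fold cutoff. Leaving out each library gave 0 to 2. The limma fits, which called 2 genes of the whole table, called 0 genes of the cascade, of ERK output, of the regulators and of the ETS and AP-1 targets. Library size alone called 1 regulator. DESeq2 called 3 cascade genes, 7 ERK output genes, 2 regulators and 4 ETS and AP-1 targets. Leaving out each library gave 0 to 3 cascade genes, 1 to 6 ERK output genes, 0 to 4 regulators and 2 to 4 ETS and AP-1 targets, and over all genes 26 to 1949 calls, the lowest without LX-2FAP 3 and the highest without LX-2FAP 1. The cause was not tested.

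The sign turned only for changes that were not called. ELK4 was at 0.0056 in DESeq2 and from -0.034 to 0.020 with a library left out, and such ranges also crossed 0 for ETS1 (-0.090 to 0.0046), ETS2 (-0.059 to 0.028), ELF1 (-0.011 to 0.063) and SRF (-0.091 to 0.0086). ELF1 was at -0.0022 with library size alone and at -0.0041 and -0.0044 in the limma fits. Same-numbered libraries did not deviate together (correlations -0.039, 0.044 and -0.0096), and differently numbered ones gave -0.11 to 0.12. No pairing by number was seen, though 3 libraries a group cannot settle it. With the replicate block 2 members and 975 genes in all were called, and RASA1 lost its call (edgeR adjusted p = 0.0564). With 3 libraries a group, a median standard error of 0.088 in log2 over all tested genes limits what can be seen.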
